A study of Mus musculus with 5 samples.

Results

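The NF-kB pathway was examined in mouse haematopoietic stem cells (HSCs) through 38 genes given by symbol, out of 35976 gene rows in the count table. All 38 were rows of the table and all 38 passed the filter on low counts, so all were tested. They comprise 9 receptors and proximal adaptors, 7 TRAF and cIAP genes, 8 kinases and kinase adaptors, 4 inhibitors of the IkB family, 5 Rel and NF-kB subunits and 5 brakes that act on ubiquitin chains. The libraries carried the labels Ythdf3-/- (3 libraries) or WT (2 libraries), all from C57BL/6 mice with no treatment named, and per the series text the 5 libraries came from different mice. YTHDF3 binds mRNA that carries N6-methyladenosine, and the question posed is how stem cells lacking it differ. Each library was made by Smart-seq2 from 30 sorted bone marrow cells without lineage markers and CD34 and with Sca-1, c-kit and CD150, so each value is a sum over very few cells. The labels give neither the allele nor the age of the mice.

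The labels themselves were not borne out by the targeted gene. Counts of Ythdf3 were 2, 339 and 366 under the Ythdf3-/- label (libraries 1, 2 and 3), against 20 and 29 under the WT label (libraries 1 and 2) (exact permutation test of CPM, two-sided, p = 0.6, where 0.2 is the smallest p that 10 arrangements allow). The series text also counts 2 knockout and 3 wild-type samples, the reverse of the sample labels. Libraries are therefore named by their label throughout, and higher or lower refers to the labels alone. Totals ran from 6357862 to 16650134 counts, so 1 count was worth 0.0601 to 0.157 CPM (the count scaled to a common library total), and the deepest library was the one labelled WT 1. Of 10 HSC markers, 9, 10 and 9 reached 1 CPM in the libraries labelled Ythdf3-/- 1, 2 and 3, against 10 and 9 in those labelled WT 1 and 2. The sort marker gene Slamf1 (CD150) had 1 count in the library labelled WT 2, and Fgd5 had 2 and 5 counts in those labelled Ythdf3-/- 1 and 3. The 10 markers summed to 1630 to 2716 CPM under the Ythdf3-/- label and 1377 to 2180 CPM under the WT label. The 10 and their sum include Cd34, although the cells were sorted as lacking CD34. Cd34 had 891, 20 and 1709 counts under the Ythdf3-/- label, against 3455 and 522 under the WT label. It reached 1 CPM in every library, which for this gene is not a sign of the sorted phenotype. The library labelled Ythdf3-/- 1 stood apart through red cell transcripts, with 35600 CPM over 9 erythroid markers, as did that labelled WT 2 with 1284 CPM, while the other libraries had 33.4 to 128.3 CPM.

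NF-kB is a family of dimeric transcription factors that inhibitors of the IkB family hold in the cytoplasm. Receptors for TNF and for microbial products build ubiquitin scaffolds through TRAF, cIAP and RIPK1 proteins, and these recruit the TAK1 and IKK kinases, which mark IkB for destruction. Enzymes and adaptors such as A20, ABIN-1, CYLD and OTULIN take the scaffolds apart or occupy them, and several of these brakes are themselves induced by NF-kB. In HSCs the pathway is known for its part in inflammatory signalling and in survival.

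Among the members, 3 stood out between the labels, each read in all libraries labelled Ythdf3-/- and far lower in both labelled WT. They were Tnip1, which encodes the ubiquitin-binding brake ABIN-1, Tnfrsf1b, which encodes the TNF receptor TNFR2, and Traf3, an adaptor that keeps the kinase NIK low. Their means were 99.7 ± 24.1, 104.0 ± 34.9 and 89.0 ± 60.6 CPM under the Ythdf3-/- label (SD, n = 3), against 1.32 ± 0.601, 2.84 ± 1.98 and 4.97 ± 5.59 CPM under the WT label (SD, n = 2). No member passed edgeR's quasi-likelihood test over the 11146 genes tested, where 0.00% of genes did, and the members' adjusted p ran from 0.9641 to 0.9998. These 3 were the members with an unadjusted p under 0.05 in edgeR, all higher under the Ythdf3-/- label, or 3 of 38 beside 4.85% of all genes in either direction, 2.11% in that direction and 2.75% in the other. The same 3 passed DESeq2 (adjusted p = 1.11e-09, 2.89e-06 and 0.0152), a test that called 4.47% of the genes to which it gave an adjusted p, 2.99% being higher under that label. Among the genes that also passed the edgeR filter, as all members did, DESeq2 called 384 of 10906.

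The 2 labels did not overlap for 13 of 38 members, 34.2%, beside 20.7% of all tested genes. Of the 13, 8 were higher under the Ythdf3-/- label, where 9.74% of all genes were, and 5 were lower, where 11.0% were. Fitted log2 fold changes (Ythdf3-/- label over WT label) ran from -6.35 to 6.14. Their median was -0.22, beside -0.063 over all genes, and 18 of 38 were positive (47.4%, against 47.8% of all genes). Fewer cells with a transcript and less RNA per cell cannot be told apart in these pools.

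**Figure D1:**
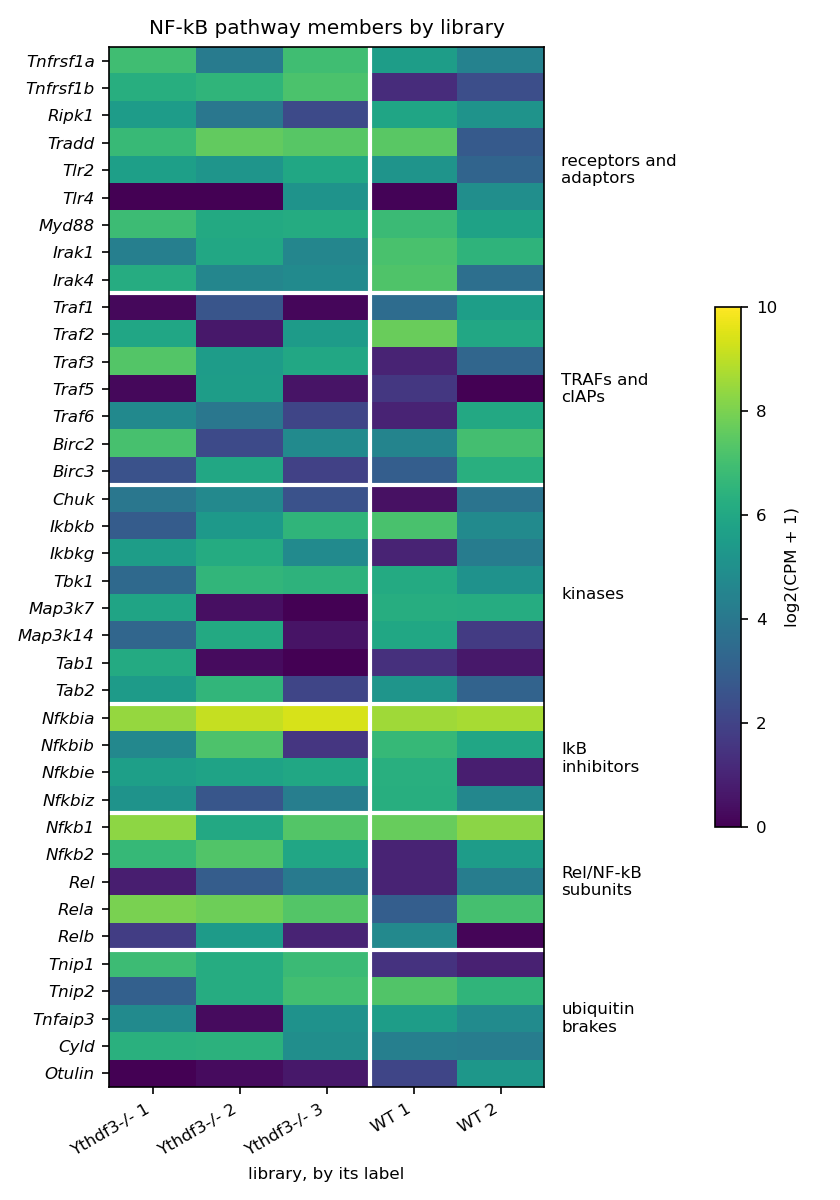
Level of each of the 38 members, as log2(CPM + 1) by colour, in the 3 libraries labelled Ythdf3-/- (left) and the 2 labelled WT (right), with members grouped by role. Nfkbia is bright in all 5 libraries, Tnip1, Tnfrsf1b and Traf3 are bright in the 3 on the left, and many other members are dark in some libraries of either label.

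Of the receptors, Tnfrsf1b (chromosome 4, 145212368 to 145246870 in mm10) was read with 490, 830 and 1006 counts under the Ythdf3-/- label, against 24 and 38 under the WT label. Every library labelled Ythdf3-/- had at least 77.1 CPM, and neither of those labelled WT had more than 4.24 CPM. The fitted log2 fold change was 5.08 (SE 1.21, edgeR adjusted p = 0.9641). The other TNF receptor gene, Tnfrsf1a, encodes the death-domain receptor TNFR1 and showed no such split, with 776, 153 and 850 counts under the Ythdf3-/- label, against 778 and 183 under the WT label. In CPM the libraries labelled Ythdf3-/- 1 and 3 were highest and that labelled Ythdf3-/- 2 was lowest of all, so the labels overlapped.

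Tlr2, a receptor for bacterial lipoproteins, had 315, 328 and 432 counts under the Ythdf3-/- label, against 591 and 74 under the WT label. On the CPM scale the labels did not overlap, but by a small margin, 36.1 CPM in the lowest library labelled Ythdf3-/- and 35.5 CPM in the higher of the 2 labelled WT. Tlr4, the receptor for lipopolysaccharide, was nearly all or none, and was high in 1 library of each label. Its counts were 0, 0 and 242 under the Ythdf3-/- label, against 1 and 264 under the WT label. A count of 0 allows up to 0.472 and 0.331 CPM in the libraries labelled Ythdf3-/- 1 and 2, taking 3 counts as the limit, which covers counting error only.

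Since these receptors are also abundant in myeloid cells, the markers of that lineage were read beside them. The 14 monocyte and macrophage markers summed to 777 to 1147 CPM under the Ythdf3-/- label and to 464.9 to 531.7 CPM under the WT label, without overlap. Counts were 0 for 9, 8 and 6 of the 14 in the libraries labelled Ythdf3-/- 1, 2 and 3, against 6 and 9 in those labelled WT 1 and 2. Most of the sum was Lyz2, with 6382, 6101 and 4310 counts under the Ythdf3-/- label, against 7220 and 3731 under the WT label. In CPM Lyz2 did not overlap, at 1004, 672.2 and 614.3 under the Ythdf3-/- label, against 433.6 and 416 under the WT label. C1qc, a complement gene of macrophages, followed the labels much as Tnip1 and Tnfrsf1b did, with 364, 298 and 259 counts under the Ythdf3-/- label, against 10 and 0 under the WT label. C1qa had 213, 1 and 164 counts under the Ythdf3-/- label, against 8 and 0 under the WT label, whereas C1qb overlapped, with 0, 280 and 242 counts under the Ythdf3-/- label, against 12 and 425 under the WT label. Some other macrophage and monocyte markers were missing, since Mpeg1, Ms4a7 and Ccr2 had 0 counts in all 5 libraries and Adgre1, which encodes F4/80, had at most 1. Others were read and overlapped between the labels. Ctss had 330, 372 and 711 counts under the Ythdf3-/- label, against 1198 and 10 under the WT label. Cd68 had 2, 0 and 860 counts under the Ythdf3-/- label, against 393 and 2 under the WT label. The summed level of the 5 T and NK cell markers was also higher under the Ythdf3-/- label, at 14.1 to 93.1 CPM against 0.841 to 10.3 CPM under the WT label, with 3, 3 and 2 of the 5 at 0 counts under the Ythdf3-/- label, against 4 and 3 under the WT label. That sum was nearly all Nkg7 and Lck, Nkg7 overlapped between the labels, and Cd3d and Klrd1 had 0 counts in all libraries. Lck did not overlap, at 43.9, 11.5 and 12.8 CPM under the Ythdf3-/- label, against 0 and 8.14 CPM under the WT label. The summed level of the 5 megakaryocyte markers was lower, at 139.5 to 200.1 CPM under the Ythdf3-/- label against 210.2 to 286.9 CPM under the WT label, with 1, 0 and 1 at 0 counts under the Ythdf3-/- label, against 0 and 1 under the WT label. Among these 5, Pf4 was lower without overlap, at 15.9, 10.25 and 22.4 CPM under the Ythdf3-/- label, against 56.3 and 83.6 CPM under the WT label. Vwf, Gp9 and Itga2b overlapped between the labels, and Gp1ba had 143, 29 and 0 counts under the Ythdf3-/- label, against 1 and 0 under the WT label. The part of these lists in the members' values was not tested.

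Myd88, the adaptor shared by Toll-like and IL-1 receptors, was one of the steadiest members. It had 721, 600 and 497 counts under the Ythdf3-/- label, against 1867 and 479 under the WT label. That is 83.5 ± 26.1 CPM under the Ythdf3-/- label (SD, n = 3) and 82.8 ± 41.5 CPM under the WT label (SD, n = 2). Of its exon bases 11.3% are shared with Acaa1a, and whether strand was used in counting is not given in the labels. Irak1, the kinase that MyD88 recruits, was lower in every library labelled Ythdf3-/-, with 119, 564 and 162 counts there, against 2343 and 810 under the WT label. The fitted log2 fold change was -1.81 (SE 0.90, edgeR adjusted p = 0.9831), and it lay between -2.56 and -1.49 when any 1 library was left out. Irak4, which phosphorylates IRAK1, overlapped between the labels at 22.8 to 72.0 CPM under the Ythdf3-/- label and 151.7 and 11.7 CPM under the WT label.

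The death-domain adaptor gene Tradd had 104.6 to 191.3 CPM under the Ythdf3-/- label and 173.5 and 6.13 CPM under the WT label, so only the library labelled WT 2 was low. Ripk1, the kinase scaffold of the TNF receptor complex, had 3.71 to 44.8 CPM under the Ythdf3-/- label and 58.2 and 34.1 CPM under the WT label.

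TRAF and cIAP proteins are the adaptors and ubiquitin ligases below these receptors. In 6 of the 7 TRAF and cIAP genes at least 50% of the CPM summed over libraries came from 1 library, beside 31.6% of members and 32.2% of tested genes. Traf3 (chromosome 12, 111166321 to 111267155) had 1006, 412 and 445 counts under the Ythdf3-/- label, against 17 and 80 under the WT label. The labels were well apart, at 45.4 CPM or more under the Ythdf3-/- label and 8.92 CPM or less under the WT label. The fitted log2 fold change was 4.05 (SE 1.49, edgeR adjusted p = 0.9641), and it was 3.18 once WT 1 was left out and 6.38 once WT 2 was. The unadjusted p in edgeR was 0.0261 with all libraries, 0.0528 without that labelled WT 1 and 0.135 without that labelled Ythdf3-/- 1.

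Traf2 and Traf1, which bind TNFR2 together with the cIAPs, lay in the opposite direction. Traf2 had 377, 5 and 309 counts under the Ythdf3-/- label, against 3486 and 563 under the WT label. The library labelled Ythdf3-/- 2 was nearly empty, and the labels were separated only by the gap between 59.3 CPM in that labelled Ythdf3-/- 1 and 62.8 CPM in that labelled WT 2. The fitted log2 fold change was -2.05 (SE 1.42, edgeR adjusted p = 0.9998), and became -1.00 without the library labelled WT 1. Traf1, itself an NF-kB target, had 1, 48 and 1 counts under the Ythdf3-/- label, against 179 and 433 under the WT label, a fitted log2 fold change of -4.06 (SE 2.55, edgeR adjusted p = 0.9998). It moved to -7.62 without the library labelled Ythdf3-/- 2 and to -2.54 without that labelled WT 2.

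Traf5 came almost whole from 1 library, with 1, 425 and 3 counts under the Ythdf3-/- label, against 34 and 0 under the WT label, and 94.7% of its summed CPM in the library labelled Ythdf3-/- 2. Traf6, the ligase used by the MyD88 branch, ran from 3.28 to 25.5 CPM under the Ythdf3-/- label, with 1.02 and 63.8 CPM under the WT label. Birc2 and Birc3 encode the ubiquitin ligases cIAP1 and cIAP2 and are neighbours on chromosome 9. Birc2 was high in the libraries labelled Ythdf3-/- 1 (134.2 CPM) and WT 2 (126.6 CPM), and Birc3 in those labelled Ythdf3-/- 2 (63.2 CPM) and WT 2 (79.3 CPM). The adjacent pair therefore did not share one pattern, and both overlapped between the labels.

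The IKK complex joins the kinases IKKalpha (Chuk) and IKKbeta (Ikbkb) to the regulatory subunit NEMO (Ikbkg). Ikbkg (chromosome X, 74393233 to 74456792) had 294, 641 and 189 counts under the Ythdf3-/- label, against 17 and 157 under the WT label. Its labels did not overlap, and the log2 fold change of 2.26 (SE 1.81, edgeR adjusted p = 0.9998) was 1.33 once WT 1 was left out and 5.50 once WT 2 was. Chuk had 92, 228 and 33 counts under the Ythdf3-/- label, against 6 and 119 under the WT label. Ikbkb had 42, 382 and 646 counts under the Ythdf3-/- label, against 2309 and 240 under the WT label.

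Levels of the 3 subunits were set side by side as CPM per kb of transcript, which corrects for the length of the transcript chosen for each gene. The library labelled Ythdf3-/- 1 had 1.85 CPM per kb of Ikbkb, 4.13 of Chuk and 6.82 of Ikbkg. That labelled WT 1 had 38.7 of Ikbkb, 0.103 of Chuk and 0.150 of Ikbkg, also in CPM per kb. By this measure Ikbkb was the highest of the 3 in 4 of 5 libraries, the exception being that labelled Ythdf3-/- 1. The lengths used were 3580 bases for Ikbkb, 3502 for Chuk and 6785 for Ikbkg. All annotated exons cover 19078, 5087 and 8110 bases, so the ranking of the 3 can change with the length used.

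The TAK1 module lies upstream of IKK. Map3k7, the gene of the kinase TAK1, had 357, 3 and 0 counts under the Ythdf3-/- label, against 1221 and 648 under the WT label. The library labelled Ythdf3-/- 1 thus had 56.2 CPM, near the 73.3 and 72.3 CPM under the WT label, while those labelled Ythdf3-/- 2 and 3 were almost empty. The fitted log2 fold change was -2.04 (SE 2.28, edgeR adjusted p = 0.9998), and it was -8.68 once the library labelled Ythdf3-/- 1 was left out. Tab1, which activates TAK1, was again read mainly in the library labelled Ythdf3-/- 1, with 438, 2 and 0 counts under the Ythdf3-/- label, against 27 and 5 under the WT label. That library held 96.6% of its summed CPM, and without it Tab1 did not pass the filter on low counts. Tab2, the ubiquitin-binding partner, ran from 3.28 to 93.5 CPM under the Ythdf3-/- label, with 35.9 and 8.03 CPM under the WT label.

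Map3k14 encodes NIK, the kinase of the non-canonical pathway whose protein TRAF3 helps to degrade. It had 57, 603 and 3 counts under the Ythdf3-/- label, against 1017 and 21 under the WT label, so no order followed the labels. Tbk1, an IKK-related kinase, ran from 9.59 to 94.8 CPM under the Ythdf3-/- label, with 68.1 and 33.7 CPM under the WT label.

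Nfkbia, the gene of IkB-alpha and the classic feedback target of NF-kB, was the member with the least variation. It had 2188, 5009 and 4701 counts under the Ythdf3-/- label, against 6383 and 3650 under the WT label. The mean was 522 ± 165 CPM under the Ythdf3-/- label (SD, n = 3) and 395.2 ± 16.7 CPM under the WT label (SD, n = 2), a fitted log2 fold change of 0.31 (SE 0.37, edgeR adjusted p = 0.9998). Per kb of transcript it ranked first among the 38 members in all 5 libraries, from 218 to 425 CPM per kb under the Ythdf3-/- label and at 243 and 258 CPM per kb under the WT label. Its coefficient of variation over the 5 libraries was 28.9%, and 7.33% of tested genes had a lower one, whereas the median was 87.6% over the members and 79.2% over all tested genes.

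The other inhibitors each had a library that was nearly empty or far below the rest. Nfkbib (IkB-beta) had 157, 1345 and 14 counts under the Ythdf3-/- label, against 1736 and 526 under the WT label, and shares 16.4% of its exon bases with Ccer2 and Sirt2. Nfkbie (IkB-epsilon) was even under the Ythdf3-/- label, with 308, 502 and 434 counts, against 1302 and 7 under the WT label. Nfkbiz, the nuclear member that modulates NF-kB target genes, had 216, 49 and 128 counts under the Ythdf3-/- label, against 1275 and 214 under the WT label. None of the 4 inhibitors was free of overlap between the labels.

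Among the subunits, Rela (p65, the main activating subunit; chromosome 19, 5637442 to 5648134) had 1625, 2023 and 1124 counts under the Ythdf3-/- label, against 114 and 1170 under the WT label. The labels did not overlap, at 160.2 to 255.6 CPM under the Ythdf3-/- label and 6.85 and 130.5 CPM under the WT label, but the library labelled WT 1 carried most of the distance. The log2 fold change of 1.51 (SE 1.04, edgeR adjusted p = 0.9998) was 0.58 once WT 1 was left out and 4.92 once WT 2 was.

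Nfkb2 (p100, the precursor of p52 and an inhibitor in its own right) had a similar order, with 651, 1393 and 422 counts under the Ythdf3-/- label, against 17 and 406 under the WT label. Its log2 fold change of 2.07 (SE 1.43, edgeR adjusted p = 0.9998) was 1.10 once WT 1 was left out and 6.64 once WT 2 was. Psd and a further annotated gene share 18.1% of its exon bases. Nfkb1 (p105, the precursor of p50) was present everywhere and overlapped, with 2009, 581 and 1125 counts under the Ythdf3-/- label, against 3369 and 2769 under the WT label.

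Per kb of transcript, Rela exceeded Nfkb1 in the 3 libraries labelled Ythdf3-/-, with ratios of 1.23, 5.30 and 1.52, and lay below it in those labelled WT, with ratios of 0.0513 and 0.640. The lengths were those of a single transcript per gene, 2716 bases for Rela and 4117 for Nfkb1. All annotated exons cover 3072 and 12061 bases, so which of the genes is higher can depend on the length used. The order of the libraries by this ratio does not. Rel (c-Rel) was low throughout, with 5, 61 and 112 counts under the Ythdf3-/- label, against 17 and 158 under the WT label. Relb, the partner of p52 in the non-canonical pathway, had 16, 399 and 7 counts under the Ythdf3-/- label, against 413 and 1 under the WT label. High Relb thus occurred in 1 library of each label, those labelled Ythdf3-/- 2 and WT 1, which were also the 2 libraries highest in Map3k14.

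**Figure D2:**
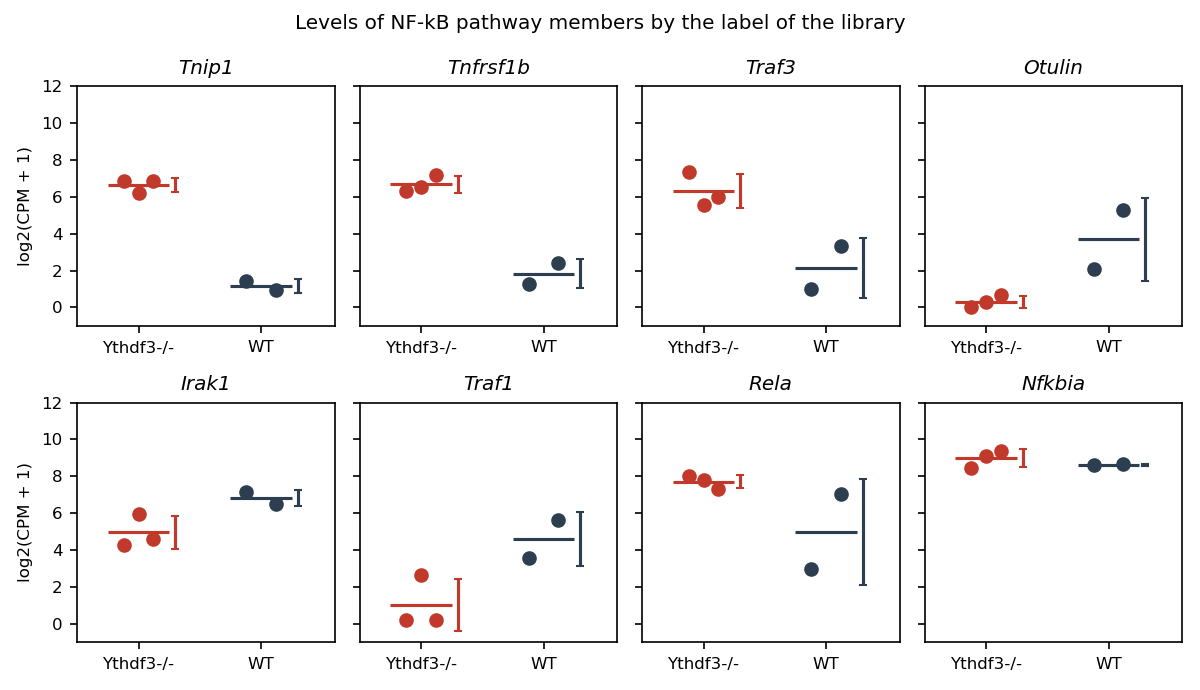
Level of 8 members as log2(CPM + 1), with a point for each library, the mean as a line and the SD as a bar beside it, for the 3 libraries labelled Ythdf3-/- (left) and the 2 labelled WT (right). Tnip1, Tnfrsf1b and Traf3 are high under the Ythdf3-/- label, and Irak1 and Traf1 are higher under the WT label. Otulin is also higher there, but mainly in the library labelled WT 2 (38.25 CPM, against 3.30 CPM in that labelled WT 1). Rela is low in 1 library labelled WT, and Nfkbia overlaps between the labels.

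The brakes on the pathway differed in direction. Tnip1 (chromosome 11, 54910787 to 54962956) had 725, 652 and 794 counts under the Ythdf3-/- label, against 29 and 8 under the WT label. All 3 libraries labelled Ythdf3-/- had 71.8 CPM or more, and both labelled WT had 1.74 CPM or less. The fitted log2 fold change was 6.14 (SE 1.25, edgeR unadjusted p = 0.00114, adjusted p = 0.9641), the seventh smallest p of the transcriptome, and leaving out any 1 library kept it between 5.79 and 6.65. Tnip2, the related gene of ABIN-2, did not share the split, with 47, 654 and 885 counts under the Ythdf3-/- label, against 2577 and 817 under the WT label. No exon base of Tnip1, Tnfrsf1b or Traf3 is shared with another annotated gene.

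Otulin, a deubiquitinase specific for linear chains (chromosome 15, 27597055 to 27630977), lay in the direction opposite to Tnip1. It had 0, 2 and 4 counts under the Ythdf3-/- label, against 55 and 343 under the WT label, a fitted log2 fold change of -6.35 (SE 2.84, edgeR adjusted p = 0.9831). The library labelled WT 2 held 90.3% of its summed CPM, and without it the log2 fold change was -3.60. Cyld, a deubiquitinase that removes Lys63-linked and linear chains, had 506, 765 and 206 counts under the Ythdf3-/- label, against 312 and 162 under the WT label. That is 64.4 ± 30.4 CPM under the Ythdf3-/- label (SD, n = 3) and 18.4 ± 0.477 CPM under the WT label (SD, n = 2), with no overlap and a log2 fold change of 1.72 (SE 1.23, edgeR adjusted p = 0.9998). Tnfaip3, the gene of the ubiquitin-editing enzyme A20 to which ABIN-1 binds, had 169, 2 and 233 counts under the Ythdf3-/- label, against 776 and 247 under the WT label. Apart from the library labelled Ythdf3-/- 2, where it was nearly missing, it lay between 26.6 and 46.6 CPM.

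**Figure D3:**
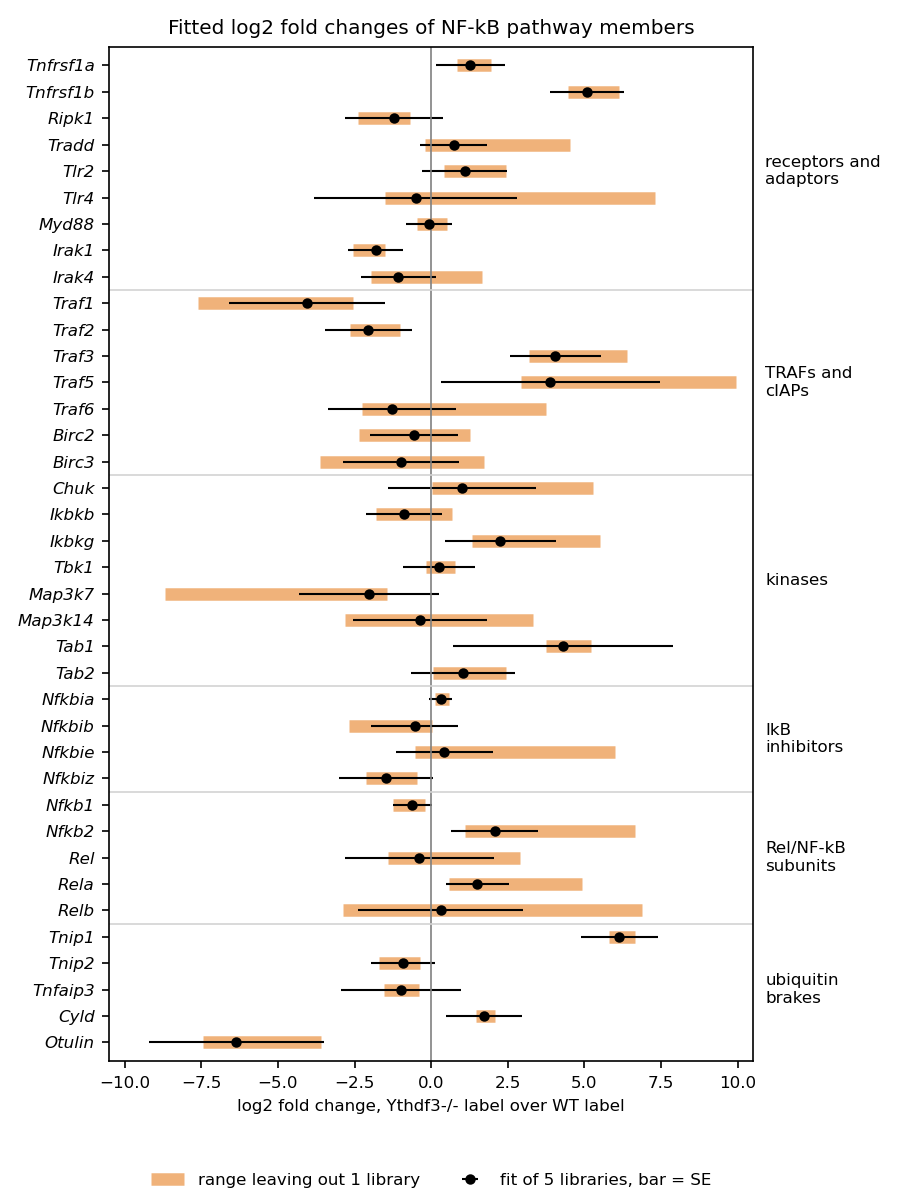
Fitted log2 fold change of each member, Ythdf3-/- label over WT label, with its SE as a line and, as a wide bar, the range over the fits that leave out 1 library. Tnip1 (6.14), Tnfrsf1b (5.08) and Traf3 (4.05) stay far from 0 in each such fit, and the bars of 14 members cross 0. Otulin (-7.44 to -3.60), Tab1 (3.76 to 5.20) and Traf5 (2.92 to 9.95) also stay far from 0 in the fits that test them. Yet 1 library held 90.3%, 96.6% and 94.7% of their summed CPM.

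Because several members are regulated by NF-kB itself, promoters were read for kB-like sites. RefSeq windows of the 250 bases before a gene's start (GRCm38.p6, the same assembly as mm10) were found for 31 of the 38 members. The motif searched was GGG, then any 3 bases, then TTCC, read on both strands, and overlapping matches were each counted. It occurred in 15 of 41 windows of members (36.6%), from 12 genes, and in 4.65% of the 32851 windows of all genes. The sequences shown are those of 2 of the 3 members with the smallest p (Tnip1 and Traf3), of the steady feedback gene Nfkbia and of Nfkb2. Each is written 5′ to 3′ on the strand of the gene and ends at the base before the start, and capitals mark the matches.
Tnip1, minus strand, chr11:54962941-54963190: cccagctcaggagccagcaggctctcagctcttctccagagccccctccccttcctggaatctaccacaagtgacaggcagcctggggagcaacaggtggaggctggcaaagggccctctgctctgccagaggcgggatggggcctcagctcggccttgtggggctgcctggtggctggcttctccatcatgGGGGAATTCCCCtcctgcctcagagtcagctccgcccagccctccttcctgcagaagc
Traf3, plus strand, chr12:111166120-111166369: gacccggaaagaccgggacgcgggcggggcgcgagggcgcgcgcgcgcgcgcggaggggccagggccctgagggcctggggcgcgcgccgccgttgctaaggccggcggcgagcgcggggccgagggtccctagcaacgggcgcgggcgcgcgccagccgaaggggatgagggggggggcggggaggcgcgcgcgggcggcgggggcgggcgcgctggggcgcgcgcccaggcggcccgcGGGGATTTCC
Nfkbia, minus strand, chr12:55492648-55492897: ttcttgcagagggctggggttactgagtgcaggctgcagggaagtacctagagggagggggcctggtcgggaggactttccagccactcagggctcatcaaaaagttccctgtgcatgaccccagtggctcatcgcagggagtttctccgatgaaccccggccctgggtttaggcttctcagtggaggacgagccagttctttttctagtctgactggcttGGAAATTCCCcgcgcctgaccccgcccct
Nfkb2, plus strand, chr19:46304487-46304736: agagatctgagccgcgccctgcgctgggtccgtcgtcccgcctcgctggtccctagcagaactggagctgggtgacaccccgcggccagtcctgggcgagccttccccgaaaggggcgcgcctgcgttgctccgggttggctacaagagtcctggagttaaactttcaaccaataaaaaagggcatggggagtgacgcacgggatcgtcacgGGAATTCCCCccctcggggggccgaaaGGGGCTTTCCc

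In Tnip1 a match on each strand overlaps in a palindrome whose matches begin 58 and 56 bases before the annotated start. In Traf3 the match ends at the base before the annotated start and lies inside the gene's span. The Nfkbia match begins 29 bases before the start, and those in the Nfkb2 window shown, 1 of 3 for that gene, 38 and 11 bases before it. Promoters with a match belonged to members of every pattern, since Tnip1 and Traf3 were higher under the Ythdf3-/- label, Nfkbia overlapped between the labels and Map3k7, which also had a match, was lower. Tnfrsf1b and Otulin had none in this window. A match is a run of letters and not a measured binding site.

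Further lists set the members in context, genes of the pathway beyond the 38 and genes known as NF-kB targets. Of 56 other pathway genes 42 were tested, and 0 passed edgeR, 0 had an unadjusted p under 0.05 and 0 passed DESeq2. Their median log2 fold change was 0.018, and 6 of 42 (14.3%) had labels that did not overlap, beside the 20.7% of all genes. Those with the smallest p were Ikbke, Map3k3, Tbkbp1 and Il1r1. Ikbke, the kinase most like TBK1, had 436, 14 and 115 counts under the Ythdf3-/- label, against 1608 and 1252 under the WT label (log2 fold change -2.13, SE 1.33, edgeR adjusted p = 0.9998). Tbkbp1, an adaptor of the same kinases, had 110, 1 and 40 counts under the Ythdf3-/- label, against 1404 and 168 under the WT label. Map3k3, a kinase that can activate IKK, averaged 31.3 ± 26.7 CPM under the Ythdf3-/- label (SD, n = 3) and 2.42 ± 1.68 CPM under the WT label (SD, n = 2), and Il1r1, the IL-1 receptor gene, averaged 2.30 ± 2.13 CPM under the Ythdf3-/- label and 18.4 ± 23.2 CPM under the WT label.

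Of 36 target genes 19 were tested, and 0 passed edgeR, while 2 had an unadjusted p under 0.05 there (4.85% of all genes did). The same 2 passed DESeq2, Bcl2l1 (adjusted p = 9.8e-07) and Myc (adjusted p = 0.0108). DESeq2 called 4.47% of the genes to which it gave an adjusted p, and 384 of 10906 among those that passed the edgeR filter. Bcl2l1, the gene of the survival factor BCL-XL, averaged 120.4 ± 86.2 CPM under the Ythdf3-/- label (SD, n = 3) and 2.53 ± 0.521 CPM under the WT label (SD, n = 2). Myc, the growth-promoting transcription factor gene, had 6535, 6689 and 5299 counts under the Ythdf3-/- label, against 5725 and 2130 under the WT label. That is 840 ± 163 CPM under the Ythdf3-/- label (SD, n = 3) and 290.7 ± 75.2 CPM under the WT label (SD, n = 2). Il15, a cytokine, averaged 110.4 ± 21.7 CPM under the Ythdf3-/- label and 41.6 ± 0.919 CPM under the WT label, a fitted log2 fold change of 1.32 (SE 0.74, edgeR adjusted p = 0.9998). Serpina3g, a protease inhibitor, averaged 1769 ± 510 CPM under the Ythdf3-/- label and 769.2 ± 624 CPM under the WT label. The list's median log2 fold change was 0.31, and 12 of 19 were fitted higher (63.2%, against 47.8% of all genes). In 7 of 19 (36.8%, against 20.7% of all genes) the labels did not overlap, 6 being higher and 1 lower under the Ythdf3-/- label.

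Apart from the labels, the members were read unevenly from library to library. Of the 38, 33, 32 and 31 had at least 1 CPM in the libraries labelled Ythdf3-/- 1, 2 and 3, against 36 and 33 in those labelled WT 1 and 2. In 14 of 38 (36.8%) some library was at 10 CPM or more while another was under 1 CPM, beside 41.6% of all tested genes. Their summed level was 2460 to 2596 CPM under the Ythdf3-/- label and 2457 and 1990 CPM under the WT label.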

How the data were processed

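Raw read counts per gene symbol were deposited by the authors for 5 Smart-seq2 libraries sequenced as paired 150-bp reads. The tools were HISAT2 2.2.1 and HTSeq 0.12.4 and the build mm10, per the submitters' processing notes. The annotation, strand setting and treatment of multiply matching reads were not given in the sources used here. Counts were tested in R 4.3.3 with edgeR 4.0.16 (default filter by group, TMM, robust quasi-likelihood fit, no covariate, Benjamini-Hochberg adjustment at 0.05 over all tested genes, SE from the F statistic), after the code was tested on simulated data. The common biological coefficient of variation was 1.26, and how many true changes edgeR finds at that spread is not given here. DESeq2 1.42.0 and limma 3.58.1 were alternatives. Transcript lengths are those of the longest APPRIS principal transcript in GENCODE M21, which was also used for shared exon bases. Gene spans and promoters are from RefSeq (GRCm38.p6). The members, lists and alternatives were chosen with earlier results of these data known. Counts in every library are given for the 12 members with the smallest p and for subunits and inhibitors, and the 4 genes with the smallest p were considered in each further list. Values for other members were added for the account of each role after they were seen.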

Additional observations from a re-analysis of the deposited data

How the results depend on the processing

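No member passed edgeR under any of the scalings, filters, left-out libraries or the replicate block, nor limma voom, whereas DESeq2 called 3 members and 594 genes, and edgeR with no filter called 21 genes and no member. Leaving out 1 library gave 0 to 1 genes called, 3 to 5 members at an unadjusted p under 0.05 and a median log2 fold change of the members of -0.17 to 0.55, the highest without the library labelled WT 1. The median over all genes also moved, to 0.31 in that fit, and once WT 2 was left out it was 0.22 beside a members' median of 0.12. The 3 leading members, Tnip1, Tnfrsf1b and Traf3, kept their direction in all fits run. Traf3 did not keep its unadjusted p under 0.05, which was 0.0688 in limma voom, 0.0728 with the replicate block, and in edgeR 0.135 without the library labelled Ythdf3-/- 1 and 0.0528 without that labelled WT 1.

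Direction turned in at least 1 fit without a library for 14 members, whose log2 fold changes ranged from -2.36 to 1.27 for Birc2, -3.63 to 1.74 for Birc3, -1.81 to 0.67 for Ikbkb, -1.95 to 1.66 for Irak4, -2.80 to 3.32 for Map3k14, -0.47 to 0.51 for Myd88 and -2.69 to 0.03 for Nfkbib. The ranges were -0.54 to 5.99 for Nfkbie, -1.41 to 2.90 for Rel, -2.87 to 6.87 for Relb, -0.17 to 0.79 for Tbk1, -1.51 to 7.29 for Tlr4, -0.20 to 4.52 for Tradd and -2.27 to 3.76 for Traf6. A fit without a library labelled WT leaves 1, which is assumed to vary like the others. Myd88 turned to 0.01 with library totals only. In limma voom Rel turned to 0.31, Tbk1 to -0.20 and Traf6 to 1.03. Without the libraries labelled WT 2 and Ythdf3-/- 1, an alternative chosen after seeing the data for their red cell transcripts, 0 genes and 0 members passed and 7 members had an unadjusted p under 0.05. There Rel turned to 3.40, Relb to -0.20, Nfkbie to -0.48, Tab1 to -3.77, Traf6 to 3.04, Birc3 to 2.19, Tradd to -0.01 and Tlr4 to 7.86, while Myd88 was -0.77 and Irak4 -2.68. Tab1 was 3.76 to 5.20 in the fits without 1 library that could test it, 2.15 with the replicate block and 0.00 in limma voom. The cause of these turns was not tested.

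Replicate numbers do not pair the libraries, which are from different mice per the series text. Deviations of same-numbered libraries from their label's mean had correlations near 0 across genes (r = -0.0043 and 0.00939). With 2 libraries labelled WT, each value is that for the other library labelled WT with its sign reversed. Same-numbered and differently numbered libraries thus give no separate evidence on pairing. With the replicate block, on the 4 libraries with a shared number, 0 members and 0 genes passed, the median was 0.09, and Tbk1 turned to -0.73, Map3k14 to 0.93, Traf6 to 1.15 and Myd88 to 0.09. Pools of 30 cells limit every value. A count of 0 allows an expected count of up to about 3 in that library, so the lowest values are uncertain.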
